A study of Populus qamdoensis and Populus schneideri with 18 samples.

Results

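Leaves of *Populus qamdoensis* grown under a blue film (BF) were compared with leaves grown under a green film (GF). The comparison rests on 6 of the 18 RNA-seq libraries of the series, 3 per film, which were chosen by the species and light quality in their labels. All P. qamdoensis plants were cuttings of a poplar from natural forest at Qamdo, kept by vegetative propagation in a nursery and covered with film in a greenhouse. The methods give leaves from 3 plants per film, while the labels do not say that each library is a separate plant, so p-values measure the spread between these libraries. The 3 libraries from plants under a translucent colorless film (WF) served the main fit only indirectly. There they entered the estimate of the spread and the filter on low values, not the difference. They are quoted as a reference level. The 9 libraries of a second poplar, *P. schneideri*, whose labels give the color quality but not the film, serve as the parallel comparison. Expression was deposited as FPKM, which scales the fragments of a gene by its length and by the total mapped in that library, for 39194 genes. Of these, 24147 averaged 0.5 FPKM or more in the 9 libraries of P. qamdoensis and were tested.

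Plants read blue light mainly through cryptochromes and the red to far-red balance through phytochromes. Both act on the COP1 ubiquitin ligase, the HY5 family of bZIP factors and the PIF family of bHLH factors, which together set leaf greening, pigment formation and elongation growth. Aromatic amino acids made in the shikimate pathway feed phenylalanine into flavonoids, lignin and stilbenoids, which in leaves serve as sunscreens and in defense. Chlorophyll is built through the porphyrin pathway and is taken apart, when leaves degreen, by the STAY-GREEN proteins, pheophorbide a oxygenase and the enzymes that follow.

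The 3 BF libraries did not behave as a uniform group, and this touches every result. The median Pearson's r of BF replicate 1 with the other 8 P. qamdoensis libraries, across the genes tested, was 0.861, against 0.940 to 0.979 for those 8. In BF replicate 1, 681 genes were more than 2-fold above and 1304 more than 2-fold below all other libraries on the log2(FPKM + 1) scale, whereas the other libraries had 0 to 191 and 0 to 16 such genes. Summed FPKM ran from 541755 to 605718 per library, and the number of genes at or above 1 FPKM from 20984 in BF replicate 1 to 22587 in BF replicate 3. By the GC content of the reads that the study lists, BF replicates 1 and 2 fall in a high class, and BF replicate 3 and all GF libraries in a low class. The low class is therefore the only one in which both films occur, and there BF is represented by BF replicate 3 alone. As a check of the tissue label, the 3 antenna protein genes that mark leaf cells summed to 440 to 925 FPKM in BF and 328 to 431 FPKM in GF.

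Log2 fold changes are BF minus GF on the log2(FPKM + 1) scale, which understates the change of low genes. They were tested in limma with Benjamini-Hochberg adjustment, and calls required an adjusted p under 0.01 and a 1.5-fold difference, the thresholds of the study. No gene was called, 0 of 24147 (0.0%). At an unadjusted p under 0.05, 2053 genes stood higher in BF (8.5% of the genes tested) and 2545 stood lower (10.5%). An exact two-sided permutation test of 3 libraries against 3 cannot give a p below 0.1, so none was used for single genes. The median log2 fold change over all genes tested was −0.05, with 44.3% of the genes higher in BF. In a bulk leaf sample, a smaller share of cells of a type and less RNA per cell cannot be told apart.

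At an adjusted p under 0.05 with the same fold change, 12 genes passed (0.0497% of those tested), 8 higher and 4 lower in BF, all at an adjusted p of 0.0467 in limma. In all 12 every BF library lay on one side of every GF library, and all 12 also had an adjusted p under 0.05 without BF replicate 1. The 12 genes were picked by their p on these same libraries, so neither is an independent check. Over all genes tested, 10.0% did not overlap with BF higher and 12.9% with BF lower. Annotation in the study's tables was found for 5 of them. Of these 5, Pyun19G007240, listed under zinc ion binding, had the largest log2 fold change and stood at 6.75, 6.64 and 6.17 FPKM in BF and at 24.5, 27.1 and 26.6 FPKM in GF. Its mean was 6.52 ± 0.308 FPKM in BF (SD, n = 3), and GF was 3.99-fold above it by the ratio of means (log2 fold change −1.85, standard error 0.20). Its WF libraries lay between, at 11.8 to 21.3 FPKM. Pyun08G013140, listed under RNA binding, was 14.7, 17.9 and 16.1 FPKM in BF and 35.2, 33.7 and 45.1 FPKM in GF (log2 fold change −1.17, standard error 0.14). Pyun17G009750, a gene of the plant-pathogen interaction list, was 5.89, 8.56 and 7.62 FPKM in BF, close to the 8.17 to 9.67 FPKM of WF, and 21.4, 18.7 and 27.8 FPKM in GF. For this gene it was thus GF that lay away from the other films.

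On the higher side, Pyun01G021560, a putative glycoside hydrolase, was 11.1, 9.42 and 16.1 FPKM in BF and 3.04, 3.24 and 2.58 FPKM in GF (log2 fold change 1.71, standard error 0.21). It lies in a run of neighbouring glycoside hydrolase identifiers whose reads may have been shared between copies, so its level is uncertain to that extent. Pyun12G011580, listed only under broad terms for cell components and biological process, was 13.1, 12.3 and 9.52 FPKM in BF and 4.09, 4.33 and 3.40 FPKM in GF, with WF between at 7.11 to 8.24 FPKM. Among the genes without annotation, Pyun17G011360 had the largest difference and was picked after its values were seen. It stood at 27.5, 25.9 and 63.8 FPKM in BF and 3.27, 1.94 and 1.94 FPKM in GF (log2 fold change 3.46, standard error 0.43).

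A wider set, with a 1.5-fold difference and an unadjusted p below 0.01, held 533 genes higher in BF (2.21%) and 424 lower (1.76%). Their median log2 fold changes were 1.04 and −0.79, and in 525 and 424 of them the libraries of the films did not overlap, against 10.0% of all genes tested that did not overlap with BF higher and 12.9% with BF lower. The mean of the WF libraries was nearer to GF than to BF in 484 of the 533 higher genes (90.8%) and in 386 of the 424 lower ones (91.0%). The WF libraries had no part in the difference, but they entered the spread and the filter on low values. The same share over all genes tested was not computed, so these shares only describe the selected genes. BF replicate 1 was the most extreme of the BF libraries in 323 and 330 genes, and BF replicate 2 the one nearest to GF in 326 and 112. Without BF replicate 1, 523 of the 533 higher genes still passed the filter on low values, and all 523 and all 424 lower genes kept their direction and an unadjusted p under 0.05. These are the same libraries with 1 left out, so this is no independent test. Over all genes, the share at that p without BF replicate 1 was 8.31% higher and 8.14% lower.

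**Figure D1:**
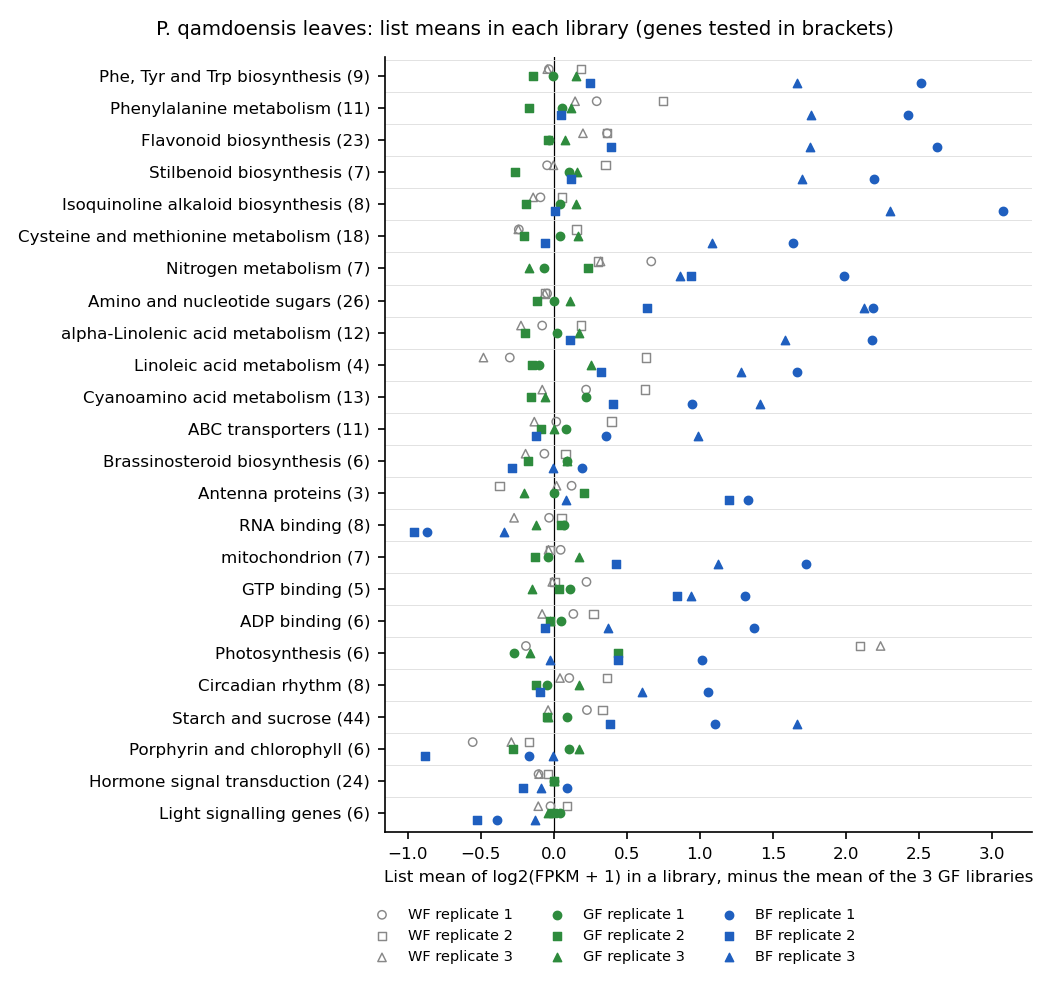
Mean log2(FPKM + 1) over the tested genes of each list in each P. qamdoensis library, minus the mean of the 3 GF libraries. Blue points are BF, green GF and open grey WF, with circles, squares and triangles for replicates 1, 2 and 3. In the flavonoid list, BF replicates 1 and 3 lie far to the right of all GF and WF libraries and BF replicate 2 close to them, while in the antenna protein list BF replicates 1 and 2 lie to the right and BF replicate 3 with GF.

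The genes of aromatic amino acid and phenylpropanoid metabolism were higher in BF almost without exception. The 5 lists concerned, phenylalanine, tyrosine and tryptophan biosynthesis, phenylalanine metabolism, flavonoid biosynthesis, stilbenoid biosynthesis and isoquinoline alkaloid biosynthesis, hold 58 entries but only 46 distinct genes. Of these, 45 were higher in BF and 1 lower. Their median log2 fold change was 1.37, against −0.05 over all genes. None was called, 34 had an unadjusted p under 0.05 with BF higher and 1 with BF lower, and in 25 the 3 BF libraries lay above the 3 GF libraries. Over all genes tested, 8.5% had that p with BF higher and 10.5% with BF lower, and 10.0% had BF above GF without overlap. The study chose these lists on these libraries, so their direction is a description and no evidence. In flavonoid biosynthesis all 23 genes were higher, with a median of 1.35, and in phenylalanine, tyrosine and tryptophan biosynthesis all 9, with a median of 1.39.

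The difference was carried by BF replicates 1 and 3. Against the mean of GF, the flavonoid genes had a median log2 difference of 2.28 in BF replicate 1, 0.25 in BF replicate 2 and 1.78 in BF replicate 3. All 23 lay above every GF library in BF replicates 1 and 3, but only 13 did in BF replicate 2. Over all genes tested, 34.0%, 30.1% and 40.2% did in BF replicates 1, 2 and 3. In phenylalanine metabolism BF replicate 2 was the lowest BF library in 11 of 11 genes. For the 46 distinct genes the median was 0.99 without BF replicate 1, with 25 genes higher and 1 lower at an unadjusted p under 0.05. BF replicate 3, the BF library that shares its GC class with GF, gave medians of 1.22 to 2.00 over the 5 lists.

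Single genes of these lists show how unequal the BF libraries were. Pyun19G013930, which is in the flavonoid and stilbenoid lists, was 194, 20.8 and 121 FPKM in BF and 19.4, 14.3 and 19.9 FPKM in GF. BF replicate 2 thus exceeded the highest GF library only narrowly, and the WF libraries, at 24.2 to 30.6 FPKM, lay above it (log2 fold change 2.10, standard error 0.66, adjusted p = 0.184 in limma). Pyun02G003050, of the flavonoid list, was 59.1, 6.27 and 30.0 FPKM in BF and 1.86, 3.45 and 1.44 FPKM in GF (log2 fold change 2.92, standard error 0.66). Pyun04G002210, of the same list, had the smallest standard error of those named, at 37.8, 19.6 and 27.2 FPKM in BF and 6.52, 7.85 and 6.67 FPKM in GF (log2 fold change 1.82, standard error 0.28, adjusted p = 0.0750 in limma). It was 4.02-fold higher in BF by the ratio of means, and its log2 fold change stayed between 1.59 and 2.05 with each library left out in turn.

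In aromatic amino acid biosynthesis, Pyun04G018350 was 54.2, 23.0 and 29.1 FPKM in BF and 11.1, 9.67 and 16 FPKM in GF (log2 fold change 1.39, standard error 0.32). Pyun05G006790, shared by 3 of the lists, was 37.2, 17.2 and 29.8 FPKM in BF and 14.2, 13.4 and 15.1 FPKM in GF. The WF libraries of Pyun05G006790, at 14.7 to 15.0 FPKM, were as narrow as those of GF. The other named members, Pyun02G013390, Pyun06G003100 and Pyun15G008140, had log2 fold changes of 0.97, 1.27 and 1.17. The exception among the 46 genes was Pyun18G010660, of the isoquinoline alkaloid list, at 7.39, 10.6 and 11.6 FPKM in BF and 19.3, 19.9 and 19.1 FPKM in GF (log2 fold change −0.93, standard error 0.16, adjusted p = 0.0873 in limma).

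Lists of sulfur, nitrogen, sugar and lipid metabolism, chosen by the study in the same way, had the same sign. Amino sugar and nucleotide sugar metabolism, which supplies precursors of the cell wall, was higher in 25 of 26 genes (median log2 fold change 1.36). Of these, 22 had an unadjusted p under 0.05 with BF higher, against 8.5% of all genes tested. Cysteine and methionine metabolism was higher in 16 of 18 genes (median 1.12), nitrogen metabolism in 7 of 7 (median 1.04) and alpha-linolenic acid metabolism, the route to jasmonates, in 12 of 12 (median 1.13). Without BF replicate 1 these medians were 0.96, 0.65, 0.88 and 0.78. By the median over genes BF replicate 2 lay nearer to GF here too, at 0.41, 0.01, 0.24 and 0.14 above the mean of GF. The list mean of log2(FPKM + 1) in BF replicate 2 was nevertheless above all GF libraries in nitrogen metabolism, at 4.58 against 3.47 to 3.88. In nitrogen metabolism it was also above the 4.50 of BF replicate 3. For the sugar list it was 2.97 against 2.21 to 2.44 in GF, and in the other lists it lay within GF.

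A small but even difference was that of Pyun09G014750 in the sugar list, at 36.8, 34.0 and 37.1 FPKM in BF and 22.5, 21.4 and 21.5 FPKM in GF. Its log2 fold change was only 0.70 (standard error 0.10, adjusted p = 0.0639 in limma), and its WF libraries, at 20.2 to 22.1 FPKM, were level with GF. A gene found only by assembly, Populus_yunnanensis_newGene_2930, was 7.08, 9.96 and 14.4 FPKM in BF and 1.99, 2.61 and 2.21 FPKM in GF (log2 fold change 1.77, standard error 0.27). The opposite extreme was Pyun01G001820, of the alpha-linolenic and linoleic acid lists, at 167, 6.4 and 10.2 FPKM in BF and 4.34, 5.55 and 7.66 FPKM in GF. Its log2 fold change of 1.84 rested on BF replicate 1 and was 0.44 without it. The other named members of the lipid and nitrogen lists, Pyun02G012060, Pyun04G009210, Pyun05G002310, Pyun10G006480 and Pyun19G005240, had log2 fold changes of 1.29, 1.08, 0.94, 1.04 and 0.94. In Pyun10G006480 the order was different, with 50.8, 38.5 and 29.0 FPKM in BF, all above the 15.9 to 21.0 FPKM of GF.

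Other lists were split or small. Linoleic acid metabolism was higher in 4 of 4 genes (median 0.88), cyanoamino acid metabolism in 10 of 13 (median 1.30) and ABC transporters in 8 of 11 (median 0.86). Pyun12G002110, an ABC transporter, went against its list at 7.62, 9.16 and 12.1 FPKM in BF and 15.8, 17.8 and 15.6 FPKM in GF. Brassinosteroid biosynthesis had a median of −0.01, with 3 of 6 genes higher. The members of this list with the lowest p were lower in BF. Pyun03G003090 was 6.80, 21.3 and 16.5 FPKM in BF and 37.0, 32.2 and 31.3 FPKM in GF (log2 fold change −1.25, standard error 0.32). Pyun07G002840 was 23.4, 37.6 and 46.5 FPKM in BF and 68.9, 57.8 and 67.4 FPKM in GF. The ABC transporter Pyun01G036500 had a log2 fold change of 1.39. In cysteine and methionine metabolism, Pyun01G007880 was 2.54-fold higher in BF by the ratio of means and Pyun15G001600 2.91-fold lower.

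**Figure D2:**
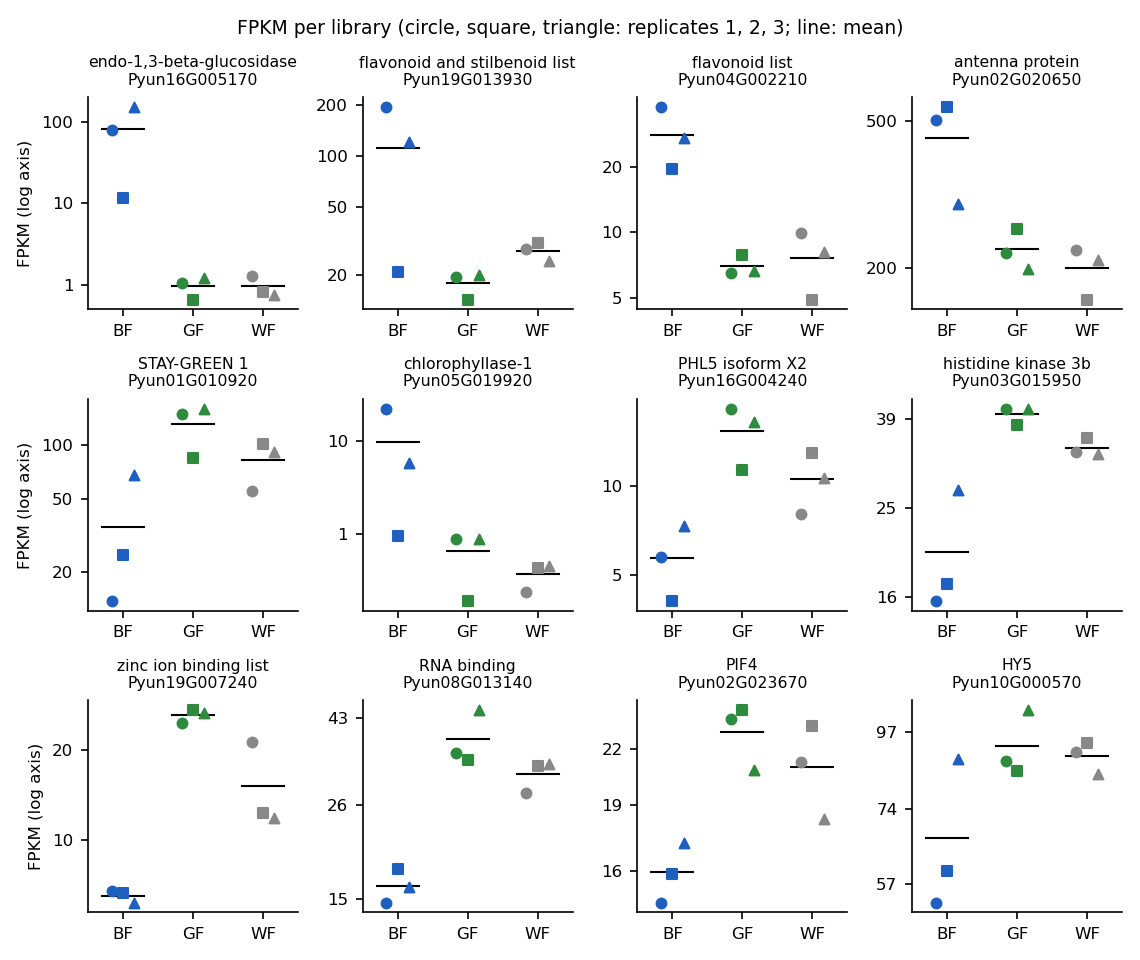
FPKM of 12 genes in each P. qamdoensis library, on log axes that differ between panels, with the mean of each film as a black line. In the endo-1,3-beta-glucosidase Pyun16G005170 the BF libraries run from 11.6 to 153 FPKM and the GF libraries from 0.649 to 1.22 FPKM, while in Pyun19G007240 the BF libraries lie together at 6.17 to 6.75 FPKM.

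The list of starch and sucrose metabolism holds several families of wall-degrading enzymes, and these were mostly higher in BF. Of its 46 genes 44 were tested, 34 of them higher in BF. The median log2 fold change was 0.97 (0.79 without BF replicate 1). The starch, porphyrin and hormone lists were likewise drawn by the study from genes it found different on these libraries. None of the 44 starch genes was called, 22 had an unadjusted p under 0.05 with BF higher and 3 with BF lower. The shares of all genes tested at that p were 8.5% and 10.5%. Glucan endo-1,3-beta-glucosidases, which cut callose and the glucans of fungal walls, were higher in 8 of 8 genes, 6 of them at an unadjusted p under 0.05, with a median of 2.08. Their summed level was 206, 66.8 and 510 FPKM in BF, 18.8, 15.2 and 18.3 FPKM in GF and 17.1 to 25.6 FPKM in WF. All BF libraries were therefore above all others, although BF replicate 3 was several times above BF replicate 2. Beta-glucosidases and putative glycoside hydrolases were higher in 6 of 7 tested genes, with a median of 1.80 and a summed level of 70.5, 80.0 and 186 FPKM in BF and 28.7 to 38.3 FPKM in GF. The 5 members without a name were all higher, 3 of them at an unadjusted p under 0.05, with a median of 2.53 and a summed level of 244, 19.8 and 486 FPKM in BF and 5.90 to 13.8 FPKM in GF. The list also holds 9 resistance-type proteins and receptor kinases, which do not act on starch or sucrose, and these had a median of 0.23, with 5 of 9 higher.

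The glucan endo-1,3-beta-glucosidase Pyun16G005170 had the largest log2 fold change of all genes with an unadjusted p under 0.01 and libraries that did not overlap. It stood at 80.2, 11.6 and 153 FPKM in BF, 1.04, 0.649 and 1.22 FPKM in GF and 0.746 to 1.29 FPKM in WF. The log2 fold change was 4.79 (standard error 0.75, adjusted p = 0.0791 in limma) and 4.49 without BF replicate 1. The neighbouring identifier carries the same annotation, so part of the reads may be shared. Pyun18G008700, next by size, was 69.7, 2.63 and 195 FPKM in BF and 1.84, 0 and 2.42 FPKM in GF, so BF replicate 2 lay barely above GF. Pyun01G021350, a beta-glucosidase, was 8.61, 8.43 and 19.2 FPKM in BF and 1.73, 2.03 and 0.699 FPKM in GF (log2 fold change 2.34, standard error 0.33, adjusted p = 0.0717 in limma). The largest differences in the other direction were those of Pyun16G012020, with no annotation, at 16.3, 2.41 and 3.48 FPKM in BF and 79.4, 37.6 and 63.5 FPKM in GF (log2 fold change −3.19, standard error 0.65), and of Pyun01G039570, a putative glycoside hydrolase of the starch list, at 0.0490, 1.21 and 6.28 FPKM in BF and 16.5, 6.55 and 14.6 FPKM in GF (log2 fold change −2.31, standard error 0.64).

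Enzymes of sucrose and starch proper did not share a sign. Sucrose synthases split sucrose into fructose and UDP-glucose, and sucrose synthase 2 (Pyun06G012700) was 3.59, 1.5 and 7.5 FPKM in BF and 0.793, 1.11 and 0.774 FPKM in GF (log2 fold change 1.29, standard error 0.39). Sucrose synthase 6 (Pyun04G007170) was 14.1, 1.22 and 9.78 FPKM in BF and 8.69, 4.64 and 8.37 FPKM in GF. Its log2 fold change of −0.17 (standard error 0.64) became 0.67 without BF replicate 2, so no direction can be given. Sucrose synthase 1 (Pyun18G005620) had a log2 fold change of 0.98, with BF replicate 2, at 0.255 FPKM, inside the range of GF. This gene passed the filter on low values only through BF replicates 1 and 3, at 2.845 and 1.934 FPKM. It was not tested without BF replicate 1, so its fold change is no support for a difference. Of the invertases, which hydrolyse sucrose, the cell wall form Pyun06G019190 was 17.6, 11.9 and 27.5 FPKM in BF and 11.1, 9.62 and 11.8 FPKM in GF. The vacuolar form Pyun15G012150 was 3.33, 2.57 and 1.98 FPKM in BF and 1.35, 1.57 and 1.06 FPKM in GF. Both had log2 fold changes below 1, at 0.69 and 0.63. Sucrose-phosphate synthase 3 (Pyun17G006180), which makes sucrose, stayed under the filter and was listed at 0.0410 to 0.103 FPKM in BF and 0.261 to 0.485 FPKM in GF.

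Genes annotated to families of starch debranching enzymes went opposite ways. Isoamylase 2 (Pyun02G020430) was 10.7, 9.71 and 5.28 FPKM in BF and 3.16, 4.44 and 2.88 FPKM in GF (log2 fold change 1.06, standard error 0.30). Pullulanase 1 (Pyun10G021480) was 11.3, 14.9 and 13.9 FPKM in BF and 23.1, 28.6 and 19.4 FPKM in GF (log2 fold change −0.77, standard error 0.20). Neither pair of groups overlapped. The large subunits of ADP-glucose pyrophosphorylase, which supplies the glucosyl donor for starch, overlapped between the films, with log2 fold changes of −0.39 in Pyun09G011970 and 0.06 in Pyun04G015050. Both stood higher under WF, at 35.3 ± 3.59 FPKM (SD, n = 3) and 3.05 ± 0.156 FPKM (SD, n = 3), than in any BF or GF library. Glucan phosphorylase (Pyun04G011470), which degrades starch, ran from 25.3 to 76.4 FPKM in BF and from 53.3 to 66.7 FPKM in GF. Trehalose-phosphate phosphatase A (Pyun15G012130) was 2.92, 0.208 and 2.90 FPKM in BF and 0.410, 0.144 and 0.625 FPKM in GF, and again BF replicate 2 lay inside GF.

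Light-harvesting genes followed a different split of the BF libraries. The antenna proteins, which bind chlorophyll around the photosystems, were higher in 3 of 3 genes, with a median log2 fold change of 0.89. Pyun02G020650 was 504, 547 and 298 FPKM in BF and 221, 256 and 199 FPKM in GF (log2 fold change 0.95, standard error 0.24, adjusted p = 0.144 in limma). Pyun01G038890 was 282, 197 and 79.5 FPKM in BF and 86.0, 102 and 78.7 FPKM in GF, and Pyun16G011210 was 139, 139 and 61.6 FPKM in BF and 64.4, 72.7 and 50.8 FPKM in GF. In both, BF replicate 3 fell inside the range of GF. The median over the 3 genes was 1.17 above GF in BF replicate 1, 1.16 in BF replicate 2 and −0.01 in BF replicate 3, and BF replicate 3 is the only BF library of the low GC class. With only 1 BF library in the class of GF, the film and the GC class cannot be fully told apart for these genes. The 6 photosynthesis genes, a list the study drew from GF against WF, had a median of 0.55, with no gene at an unadjusted p under 0.05. In P. schneideri all 6 were lower in BF, with a median of −1.0 and 2 at an unadjusted p under 0.05. The list mean of log2(FPKM + 1) in P. schneideri was 2.00, 2.59 and 2.62 in BF and 2.43, 4.88 and 2.99 in GF. The films thus overlapped there, and GF replicate 2 lay far above the rest. In P. qamdoensis the median of the 6 genes was 1.11, 0.66 and −0.07 above GF in BF replicates 1, 2 and 3. With the GC class as a term in the fit, the sign of their median fold change turned, to −0.54. In that fit the WF libraries of P. qamdoensis also informed the GC term, and their list means were 2.26, 4.55 and 4.69.

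In the chlorophyll pathway, 4 genes of breakdown were lower in BF, and chlorophyllase and a gene of synthesis were higher. STAY-GREEN 1 removes magnesium from chlorophyll a, and its copy Pyun01G010920 was 13.8, 24.7 and 67.8 FPKM in BF and 147, 84.1 and 158 FPKM in GF. GF was 3.65-fold above BF by the ratio of means, with a log2 fold change of −2.08 (standard error 0.52, adjusted p = 0.141 in limma). The other copy, Pyun03G011220, was 68.5, 55.6 and 116 FPKM in BF and 181, 117 and 208 FPKM in GF (log2 fold change −1.09, standard error 0.31). Its highest BF library came within 1.00 FPKM of its lowest GF library. Reads of these copies may have been shared.

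Pheophorbide a oxygenase (Pyun04G020980), which opens the chlorophyll ring, was 57.1, 46.8 and 94.3 FPKM in BF and 142, 93.3 and 146 FPKM in GF, so BF replicate 3 overlapped GF (log2 fold change −0.97, standard error 0.31). TIC 55 (Pyun06G024870), which in Arabidopsis hydroxylates a product of that step, was 46.6, 35.7 and 63.7 FPKM in BF and 101, 73.0 and 106 FPKM in GF (log2 fold change −0.94, standard error 0.24). Chlorophyllase-1 (Pyun05G019920), which cuts off the phytol tail, was higher, at 22.3, 0.952 and 5.75 FPKM in BF and 0.886, 0.192 and 0.9 FPKM in GF. Its log2 fold change of 2.06 was 1.16 without BF replicate 1. Protochlorophyllide reductase (Pyun01G038270), the light-driven step of chlorophyll synthesis, was 43.8, 30.5 and 16.8 FPKM in BF and 11.7, 21.8 and 11.8 FPKM in GF (log2 fold change 0.92, standard error 0.37). The 6 genes had a median of −0.95, and 4 were lower at an unadjusted p under 0.05 and 2 higher. Over all genes tested, 10.5% were lower at that p and 8.5% higher. Relative to GF the median of the 6 genes was −1.04, −1.37 and −0.45 in BF replicates 1, 2 and 3.

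**Figure D3:**
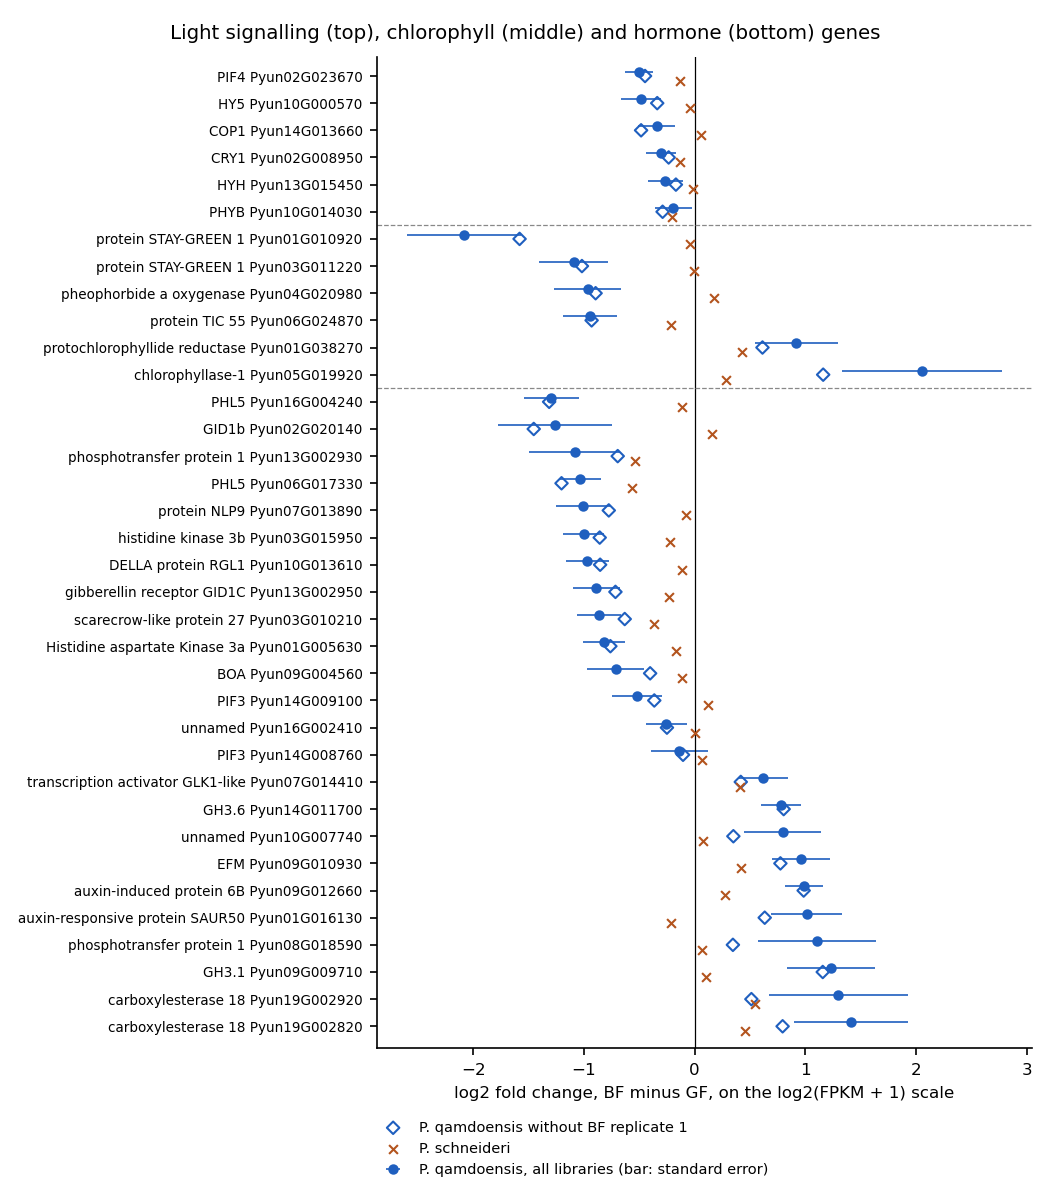
Log2 fold changes, BF minus GF, of the light signalling, chlorophyll and hormone genes. Filled circles with bars give all P. qamdoensis libraries with the standard error, open diamonds the fit without BF replicate 1 and crosses P. schneideri, where tested. STAY-GREEN 1 (Pyun01G010920) has the lowest value in P. qamdoensis, −2.08, and lies at −0.05 in P. schneideri.

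Hormone signalling genes were split by class. Of 24 genes, 10 stood above GF and 14 below, and 7 and 12 of them had an unadjusted p under 0.05. The shares of all genes tested at that p were 8.5% higher and 10.5% lower in BF. The median log2 fold change of the 24 genes was −0.39. The study collected this list from all film comparisons, and the classes below follow the gene names. The annotated auxin response genes were higher in BF. SAUR proteins promote cell expansion, and the SAUR-type gene 6B (Pyun09G012660) was 2.10, 2.18 and 2.00 FPKM in BF and 0.429, 0.808 and 0.473 FPKM in GF (log2 fold change 0.99, standard error 0.17, adjusted p = 0.0873 in limma). SAUR50 (Pyun01G016130) was 11.3, 4.20 and 4.96 FPKM in BF and 2.30, 2.74 and 2.75 FPKM in GF. GH3 enzymes conjugate auxin to amino acids. GH3.1 (Pyun09G009710) was 3.16, 0.868 and 5.78 FPKM in BF and 0.692, 0.368 and 0.753 FPKM in GF, and GH3.6 (Pyun14G011700) 1.47, 1.72 and 1.51 FPKM in BF and 0.6, 0.461 and 0.431 FPKM in GF. In these 4 genes all BF libraries were above all GF libraries, as they were in 10.0% of all genes tested.

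Cytokinin receptors were lower in BF. Histidine kinase 3b (Pyun03G015950) was 15.7, 17.0 and 27.3 FPKM in BF and 41.1, 37.8 and 41.0 FPKM in GF, a 2.00-fold difference of the means (log2 fold change −1.0, standard error 0.19, adjusted p = 0.0955 in limma). Histidine kinase 3a (Pyun01G005630) was 14.7, 12.3 and 22.2 FPKM in BF and 29.4, 27.4 and 29.5 FPKM in GF (log2 fold change −0.82, standard error 0.19). The WF libraries of histidine kinase 3b lay between the films, at 32.7 to 35.4 FPKM, while those of histidine kinase 3a, at 21.2 to 24.3 FPKM, overlapped BF. The phosphotransfer proteins that relay the signal went opposite ways. Pyun13G002930 was 6.42, 19.3 and 12.7 FPKM in BF and 21.9, 39.7 and 20.1 FPKM in GF. Pyun08G018590 was 26.4, 5.29 and 4.09 FPKM in BF and 3.28, 3.14 and 3.97 FPKM in GF, and its log2 fold change of 1.1 was 0.35 without BF replicate 1.

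Gibberellin receptors were lower in BF, and a DELLA repressor was listed lower near the floor. GID1C (Pyun13G002950) was 23.6, 26.6 and 44.5 FPKM in BF and 55.2, 54.2 and 62.8 FPKM in GF (log2 fold change −0.89, standard error 0.21). GID1b (Pyun02G020140) was 5.97, 1.87 and 6.6 FPKM in BF and 13.9, 6.69 and 17.3 FPKM in GF. RGL1 (Pyun10G013610), a DELLA protein, was listed at 0, 0.317 and 0.234 FPKM in BF and at 1.63, 0.910 and 1.43 FPKM in GF (log2 fold change −0.97, standard error 0.20). Its means were 0.184 FPKM in BF and 0.698 FPKM in WF, and it passed the filter on low values only through GF. The fold change of RGL1 is therefore no support for a difference. SCL27 (Pyun03G010210) and NLP9 (Pyun07G013890) were also lower, with log2 fold changes of −0.87 and −1.01 and no overlap between the films. The carboxylesterase 18 genes, relatives of the receptors, had log2 fold changes of 1.41 (Pyun19G002820) and 1.30 (Pyun19G002920). Both were highest in BF replicate 1, at 14.6 and 20.8 FPKM, against 1.98 and 2.39 FPKM in BF replicate 3.

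Among the MYB-type factors of the list, both PHL5 genes were lower in BF without overlap. Pyun06G017330 was 13.0, 7.86 and 9.80 FPKM in BF and 21.7, 21.5 and 21.3 FPKM in GF (log2 fold change −1.03, standard error 0.18, adjusted p = 0.0902 in limma). Pyun16G004240 was 5.75, 4.06 and 7.31 FPKM in BF and 18.4, 11.3 and 16.5 FPKM in GF (log2 fold change −1.30, standard error 0.25). EFM (Pyun09G010930), a repressor of flowering in Arabidopsis, was 22.3, 18.2 and 12.1 FPKM in BF and 6.86, 9.80 and 8.30 FPKM in GF. GLK1-like (Pyun07G014410), named after activators of chloroplast genes, was 20.0, 17.0 and 9.75 FPKM in BF and 9.59, 9.88 and 8.82 FPKM in GF, so that BF replicate 3 lay inside GF, as it did for 2 of the 3 antenna genes. BOA (Pyun09G004560), a clock factor in Arabidopsis, was 6.57, 12.6 and 14.4 FPKM in BF and 20.5, 20.0 and 14.5 FPKM in GF. The unnamed members Pyun10G007740 and Pyun16G002410 had log2 fold changes of 0.79 and −0.26.

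Each of the 6 light signalling genes of the study's primer list was lower in BF, with log2 fold changes of −0.50 to −0.19 and a median of −0.32. Of all 24147 genes tested, 13460 were lower in BF, and 12.9% were lower without overlap. PIF4 (Pyun02G023670), a promoter of elongation, was the only one of the 6 without overlap. It stood at 14.7, 15.9 and 17.2 FPKM in BF and 23.8, 24.3 and 20.8 FPKM in GF, a log2 fold change of −0.50 (standard error 0.13, adjusted p = 0.143 in limma) and −0.45 without BF replicate 1. HY5 (Pyun10G000570), which activates light-induced genes, was 53.4, 59.6 and 88.2 FPKM in BF and 87.5, 84.7 and 105 FPKM in GF. The log2 fold change of HY5, −0.48, came with an unadjusted p of 0.0275, and BF replicate 3 lay within GF. The blue light receptor CRY1 (Pyun02G008950) was 55.5, 57.1 and 72.8 FPKM in BF and 80.9, 70.1 and 77.7 FPKM in GF (log2 fold change −0.31, standard error 0.14). COP1 (Pyun14G013660), HYH (Pyun13G015450), a relative of HY5, and the red light receptor PHYB (Pyun10G014030) had log2 fold changes of −0.34, −0.26 and −0.19, with films that overlapped. The PIF3 genes of the hormone list, Pyun14G009100 and Pyun14G008760, had −0.52 and −0.14. Against GF the median of the 6 genes was −0.45, −0.51 and −0.06 in BF replicates 1, 2 and 3.

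The names of these genes are those of the study's primer list, and a primer pair does not by itself establish a name. The study designed the primer pairs on coding sequences. Those of PIF4 and HY5 are shown because the study lists each pair with the identifier whose values are given here. They were not aligned to other copies of these families.
PIF4 forward: gtgagggaatcgacggttgt
PIF4 reverse: gagcactagaaaccgtgcct
HY5 forward: agcccaacaagctcgagaaa
HY5 reverse: accttccgaagcatggtgtt
The primers have 20 bases each and are written 5′ to 3′, as the study lists them.

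Lists by function rather than pathway, also chosen on these libraries, gave a mainly lower group as well. Over all genes tested, 10.5% were lower in BF at an unadjusted p under 0.05, and 12.9% were lower without overlap. Of the 8 genes listed under RNA binding, 7 were lower in BF, each at that p and with no overlap, and 1 was higher (median log2 fold change −0.90). Their mean log2(FPKM + 1) was 2.80, 2.72 and 3.33 in BF and 3.74, 3.72 and 3.55 in GF, so every BF library lay below every GF library. Genes listed under GTP binding were higher in 5 of 5 (median 0.94). In all 5 BF lay above GF without overlap, as in 10.0% of all genes tested. Genes of the term mitochondrion were higher in 7 of 7 (median 0.96) and those of ADP binding, which includes many resistance genes of plants, in 5 of 6 (median 0.80, and 0.26 without BF replicate 1). The circadian rhythm list, drawn from GF against WF, had a median of 0.02, with 4 of 8 genes higher.

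**Figure D4:**
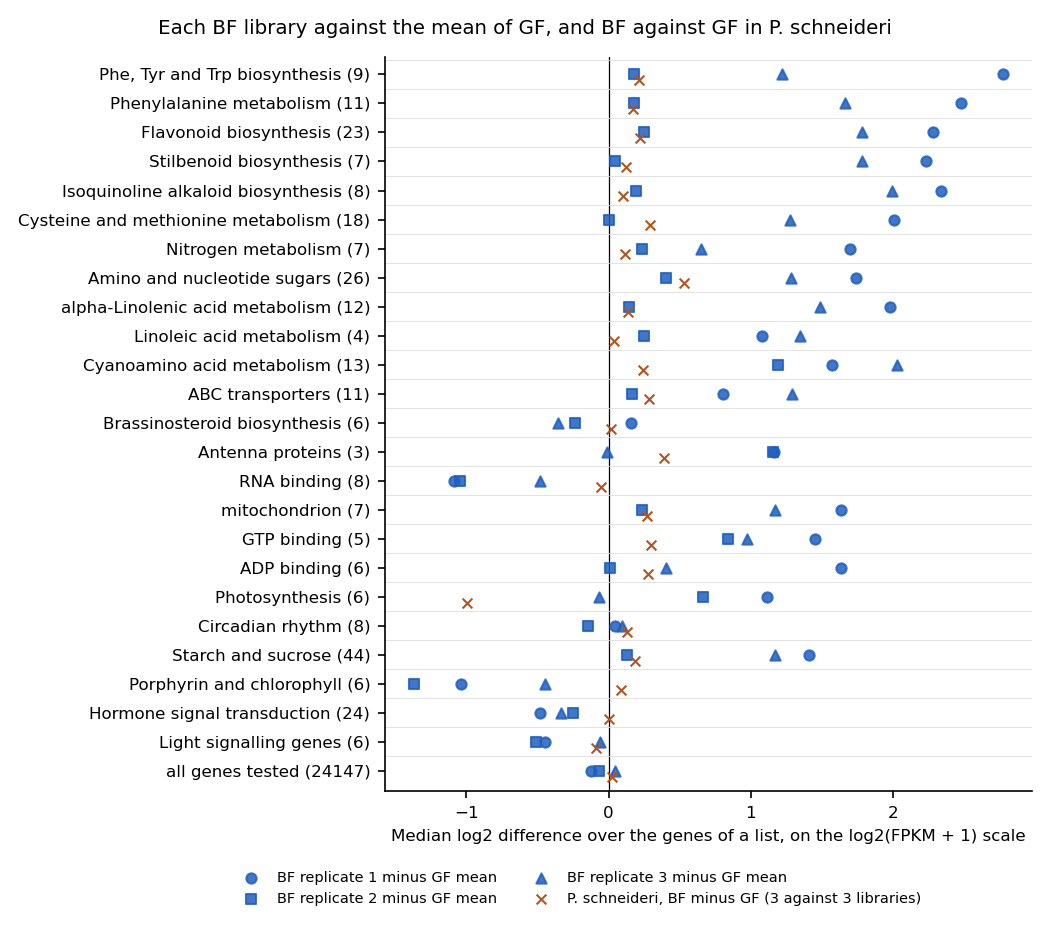
Median over the genes of a list of the log2 difference between a single BF library and the mean of GF, with circles, squares and triangles for BF replicates 1, 2 and 3. Crosses give the median log2 fold change of the same lists in P. schneideri, and the bottom line all 24147 genes tested. BF replicate 2 lies between −0.24 and 0.41 in 12 of the first 13 lists from the top, the exception being cyanoamino acid metabolism at 1.19.

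The count of BF vs GF calls depended on which BF library was left out. Without BF replicate 2, 186 genes were called at an adjusted p under 0.01, 176 higher in BF (0.728% of 24169 genes) and 10 lower (0.0414%). Flavonoid biosynthesis then held 9 called genes of 23, starch and sucrose metabolism 8 of 44, amino sugar and nucleotide sugar metabolism 6 of 26, alpha-linolenic acid metabolism 5 of 12 and phenylalanine, tyrosine and tryptophan biosynthesis 5 of 9, all higher in BF. The porphyrin, hormone, light signalling and antenna lists held 0. Without BF replicate 1 or BF replicate 3 no gene was called. At an adjusted p under 0.05 with a 1.5-fold difference the order was different, with 63 genes without BF replicate 1, 804 without BF replicate 2 and 994 without BF replicate 3. The unadjusted counts at p under 0.05 were 3944, 5922 and 7154.

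In P. schneideri, compared in the same way with libraries of its own, the differences were smaller. Of 23821 genes tested there, 4.25% had an unadjusted p under 0.05 with BF higher and 2.23% with BF lower. The median was 0.02, and 55.2% of these genes were higher in BF, the share against which the counts below stand. The lists were chosen on P. qamdoensis, so their values in the other poplar do not depend on that choice. Of the 153 genes of the BF against GF lists tested in P. schneideri, 123 were higher in BF, with a median of 0.26, 28 at an unadjusted p under 0.05 with BF higher and 1 with BF lower. Of the 46 aromatic genes, 38 were higher there, 9 at that p, with a median of 0.22 against 1.37 in P. qamdoensis. The flavonoid gene Pyun04G002210 was 16.6 ± 3.59 FPKM in BF and 9.56 ± 1.90 FPKM in GF (SD, n = 3) in P. schneideri, and the sugar gene Pyun09G014750 32.9 ± 3.72 and 20.7 ± 3.46 FPKM (SD, n = 3), a log2 fold change of 0.65 against 0.70 in P. qamdoensis. Neither STAY-GREEN copy had a log2 fold change beyond −0.05 in P. schneideri, where the libraries of a film varied widely.

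The difference between the poplars was itself fitted over all 18 libraries, as BF minus GF in P. qamdoensis less BF minus GF in P. schneideri. The filter was on the mean over all 18 libraries, so a gene absent from P. schneideri could pass through P. qamdoensis alone. Pyun01G021350, at 0 FPKM in every P. schneideri library, is such a gene, and its difference of 2.34 is only its fold change in P. qamdoensis. No gene passed an adjusted p under 0.01 with the fold change, 0 of 24273 (0.0%). At an unadjusted p under 0.05 the difference was larger in P. qamdoensis in 1033 genes (4.26%) and smaller in 1374 (5.66%). Of the 46 aromatic genes, 20 had a larger difference at that p and 1 a smaller one, which the choice of the list on P. qamdoensis favors. Of the 533 genes higher in BF by an unadjusted p under 0.01, 475 were tested in P. schneideri and 371 were higher there too (78.1%), against 55.2% of all genes, and 91 had an unadjusted p under 0.05 in that direction (19.2%, against 4.25% of all genes) and 10 in the other. Of the 424 lower genes, 283 of 405 were lower there (69.9%), against 10674 of all 23821 genes. At an unadjusted p under 0.05, 14 were lower there (3.46%), near the 2.23% of all genes, and 8 were higher.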

How the data were processed

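Leaf mRNA of P. qamdoensis and P. schneideri was sequenced by the authors, and gene expression was deposited as FPKM in 1 table of 18 libraries. Per the submitters' processing notes, HISAT2 and StringTie were used, without versions, and the handling of near-identical copies and of strand is not given in the sources used here. FPKM values were taken as log2(FPKM + 1). Low values showed no common step between libraries, so the fragments behind a value, and its counting error, are unknown.

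Libraries were grouped by their labels. Genes averaging 0.5 FPKM or more were fitted with limma 3.58.1 (R 4.3.3), with 1 mean per film, an intensity trend and Benjamini-Hochberg adjustment. P. schneideri was fitted alike, and the species difference over 18 libraries. Tables and plots used Python 3.11.15, pandas 2.3.3 and matplotlib 3.10.9. Other pseudocounts, filters, scalings, terms and libraries left out were tried, and the fit was tested on simulated data.

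Named were the light signalling genes of the primer list, the annotated porphyrin and hormone genes, sucrose and starch enzymes, the 2 genes of smallest p in each of 14 pathway lists, the antenna genes, the annotated genes at an adjusted p under 0.05, and the 2 genes of largest difference in each direction. Members and lists were chosen with earlier results of these data known, and most lists by the study on these libraries. Gene names come from the study's tables, and the authors' own comparisons were not used.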

Additional observations from a re-analysis of the deposited data

Results flagged for a closer look

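Among the 84 named genes, 2 had films that did not overlap in either poplar and differed in direction. In both, every BF library lay above every GF library in P. qamdoensis and below every one in P. schneideri. Such genes were not counted over all genes tested, of which 10.0% lay higher in BF without overlap in P. qamdoensis alone. Pyun05G002310, of the linoleic acid list, was 4.23, 1.89 and 4.45 FPKM in BF and 1.42, 1.25 and 1.13 FPKM in GF in P. qamdoensis. In P. schneideri it was 1.66 ± 0.203 FPKM in BF and 2.28 ± 0.289 FPKM in GF (SD, n = 3). The log2 fold changes of the poplars differed by 1.24, and the test of that difference did not pass after adjustment (limma, Benjamini-Hochberg adjusted p = 0.199).

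Pyun15G008140, of the phenylalanine metabolism and isoquinoline alkaloid lists, was 4.06, 1.7 and 5.19 FPKM in BF and 0.853, 1.31 and 0.732 FPKM in GF in P. qamdoensis. In P. schneideri it was 0.662 ± 0.122 FPKM in BF and 1.45 ± 0.324 FPKM in GF (SD, n = 3). The difference between the poplars was 1.72 on the log2 scale (limma, Benjamini-Hochberg adjusted p = 0.188). Both genes are low, and both were named for a small p in P. qamdoensis, which favors a larger difference there.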

How the results depend on the processing

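The 0 BF vs GF calls at an adjusted p under 0.01 in limma held under pseudocount 0.1, a filter of 5 FPKM or none, quantile or median-ratio scaling, library weights, no trend and only the 6 BF and GF libraries. With the GC class as a term 1 gene was called, at an adjusted p under 0.05 12 genes passed, and at an unadjusted p under 0.01 957. Leaving out single libraries gave 0 to 186 calls, with 186 without BF replicate 2 and 2 without WF replicate 1. The species difference gave 0 calls, 1 with only the 12 BF and GF libraries, and 0 to 120 with single P. qamdoensis or P. schneideri libraries left out, with 120 without BF replicate 2, 2 without BF replicate 1 and 1 without BF replicate 3 or WF replicate 1 of P. qamdoensis.

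The libraries share replicate numbers, but the deviations of same-numbered BF and GF libraries correlated at −0.0184, 0.2303 and 0.0805, so the numbers were not taken as pairs. With the replicate block 0 genes were called for both results.

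Of 1555 values for 83 named genes under the alternatives, 1535 kept direction and side of the threshold, 16 became called and 4 turned direction. Sucrose synthase 6 (Pyun04G007170) ran from −0.71 to 0.67 with single libraries left out, and PIF3 (Pyun14G008760) from −0.33 to 0.020. With the GC class as a term, glucan phosphorylase (Pyun04G011470) was 0.030 and ADP-glucose pyrophosphorylase (Pyun09G011970) 0.23. Of 480 list medians, 12 moved by more than the replicate spread. These include brassinosteroid biosynthesis without BF replicate 1 (−0.31), ADP binding with the filter of 5 FPKM (−0.01), the photosynthesis list with the GC class (−0.54) and the hormone list with pseudocount 0.1 (−0.54) or the filter of 5 FPKM (−0.87). A comparison added after seeing the data, BF replicate 3 against GF within the low GC class, moved 7 medians, among them the porphyrin list to −0.45 and the antenna list to −0.01. The causes were not tested.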
